A study of Mus musculus with 58 samples.

Results

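The genes described here are 9 markers of meningeal fibroblasts, *Dcn*, *Lum*, *Ogn*, *Islr*, *Slc6a13*, *Slc13a4*, *Slc47a1*, *Igf2* and *Igfbp2*, looked up by symbol in the EC and PVC tables of the study. All 9 were found among the 31246 genes listed in each table, and each averaged at least 10 normalized counts in both regions. The libraries came from the EC (entorhinal cortex) and the PVC (visual cortex, primary area) of male C57Bl/6 mice aged between 14 and 15 months, 10 of them *APOE3/3* and 19 *APOE3/4*. Every mouse carried human *APOE* in place of mouse *Apoe*, driven by the mouse promoter. The paper gives separate colonies for the mice of the whole study, without saying which colony the sequenced mice came from. The 29 animal numbers were the same in both regions, which gives 58 libraries of bulk poly(A)+ RNA. The value used for each gene was the authors' mean over the 29 mice of a region, with both genotypes pooled, so the levels below compare the regions and not the genotypes. No values of single mice were used. The spread between mice is therefore unknown, no difference could be tested, and the values are a description of the pooled means.

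Meningeal fibroblasts line the surface of the brain and follow its larger vessels. They lay down collagens and small leucine-rich proteoglycans, take up or export solutes between the cerebrospinal fluid and the tissue, and secrete growth factors and retinoic acid that act on the underlying cortex. The 9 genes fall into those roles. *Dcn* (decorin), *Lum* (lumican) and *Ogn* (osteoglycin) encode secreted leucine-rich proteoglycans of the collagen matrix, and *Islr* encodes an immunoglobulin-domain protein with leucine-rich repeats. *Slc6a13* encodes the GABA and taurine transporter GAT2, *Slc13a4* a sodium-coupled sulfate transporter, and *Slc47a1* the proton-coupled exporter of organic cations MATE1. *Igf2* is an imprinted growth factor gene, and *Igfbp2* encodes a binding protein for insulin-like growth factors. *Igf2*, *Igfbp2* and *Slc13a4* are also known from the choroid plexus, and *Igfbp2* from astrocytes, so these genes are not specific to fibroblasts.

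All 9 genes had a higher level in the EC than in the PVC. Levels are given as normalized counts per 1000000 (CPM), that is, the mean normalized count as a share of the sum over all genes of the same table. These sums were 49385488 in the EC against 27058393 in the PVC, and the tables were normalized separately. Of the 15642 genes with a mean of at least 10 in both tables, 54.9% were higher in the EC on this scale, and their median ratio of EC to PVC was 1.02. A ratio of at least 2 was found for 5 of the 9 markers, against 2.88% of those 15642 genes, and a ratio of at least 1.5 for 7 of the 9, against 7.17%. The markers were chosen with earlier results of these data known, so these counts are not independent of the data. The median ratio of the 9 was 2.14. Their summed level was 326 CPM in the EC against 132 in the PVC, a ratio of 2.48, and without *Dcn* the ratio of the sums was 1.93. In bulk tissue, fewer cells of a type and less RNA per cell cannot be told apart, and neither was resolved here.

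**Figure D1:**
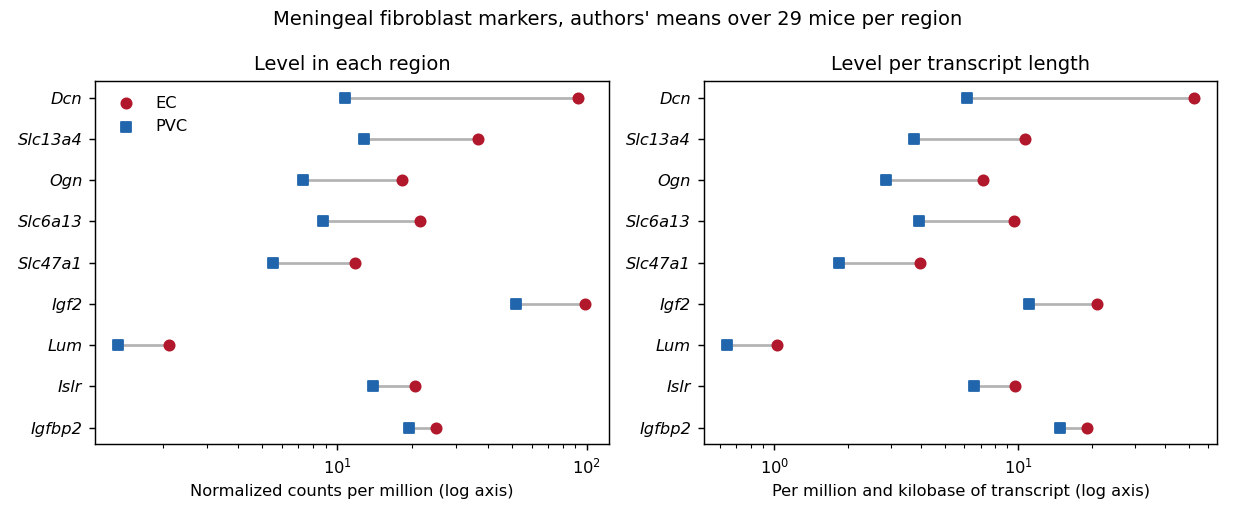
The left panel plots the level of each marker in CPM and the right panel the CPM per kilobase of the longest transcript, both on log axes. Circles are the EC and squares the PVC, each the authors' mean over 29 mice with no error available, and every circle lies to the right of its square, by 8.54-fold for *Dcn* and 1.29-fold for *Igfbp2*.

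*Dcn*, whose protein binds collagen fibrils and restrains transforming growth factor beta, stood apart from the other markers. Its level was 92.1 CPM in the EC against 10.8 in the PVC, from mean normalized counts of 4548 and 292. The ratio was 8.54, or 3.09 on the log2 scale, and 99.9% of the 15642 genes had a lower ratio. Among the 12097 genes with a mean of at least 100 in both tables it held place 2, after *Arhgap6* with a ratio of 8.70 and before *Ecel1* with 6.67. The other genes among the 10 of largest ratio were *Kcng1*, *Nnat*, *Nr2f2*, *Fibcd1*, *Hpcal1*, *Filip1* and *Gpc4*, with ratios from 4.86 down to 4.22. With a single mean per region, likeness to *Dcn* could be judged only by this ratio, and none of the other 8 markers was among these genes. Among 12 further genes of the fibroblast matrix, described below, the highest ratio was 2.48, for *Col3a1*. Which cells the *Dcn* reads came from was not tested, so its ratio cannot be assigned to fibroblasts.

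The other matrix genes differed less between the regions. *Ogn* had a level of 18.1 CPM in the EC against 7.30 in the PVC, a ratio of 2.48. *Lum*, whose protein spaces collagen fibrils in the cornea and other connective tissue, was the marker of lowest level, with 2.13 CPM in the EC against 1.33 in the PVC, a ratio of 1.60. *Islr* was at 20.4 CPM in the EC against 13.9 in the PVC, a ratio of 1.47. The ratio of *Dcn* was thus more than 3 times that of *Ogn*, the next of the matrix markers, so the 4 matrix genes did not share a single ratio.

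All 3 transporters passed a ratio of 2, against 2.88% of all genes. *Slc13a4* had a level of 36.6 CPM in the EC against 12.8 in the PVC, a ratio of 2.86 that 99.1% of genes fell below. *Slc6a13* was at 21.4 CPM in the EC against 8.76 in the PVC, with a ratio of 2.45. For *Slc47a1* the levels were 11.8 and 5.51 CPM and the ratio was 2.14. Without the pseudocount, the 3 ratios lay closer together than those of the matrix genes.

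The growth factor genes, *Igf2* and *Igfbp2*, both had ratios under 2. *Igf2* had the highest CPM of the 9, with 98.6 in the EC against 52.0 in the PVC, a ratio of 1.90. *Igfbp2* was at 24.9 CPM in the EC against 19.3 in the PVC, and its ratio of 1.29 was the lowest of the 9. The ratio of *Igfbp2* still exceeded that of 86.3% of the 15642 genes. The ratios of *Igfbp2* and *Islr* lie below 1.5. No ratio limit was set to choose the markers. They were chosen with earlier results of these data known, however, so their counts past a limit are not independent of the data.

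Levels of different genes were compared per length, as CPM per kilobase of the longest annotated transcript. In the EC *Dcn* came first at 52.4 on this scale, followed by *Igf2* at 20.9, *Igfbp2* at 19.0, *Slc13a4* at 10.7, *Islr* at 9.70, *Slc6a13* at 9.60, *Ogn* at 7.13, *Slc47a1* at 3.94 and *Lum* at 1.03. In the PVC the order began with *Igfbp2* at 14.8 and *Igf2* at 11.0, followed by *Islr* at 6.60, *Dcn* at 6.13, *Slc6a13* at 3.92, *Slc13a4* at 3.74, *Ogn* at 2.87, *Slc47a1* at 1.84 and *Lum* at 0.641. *Igf2*, *Ogn*, *Slc47a1* and *Lum* held the same place in both regions, and *Dcn* was first in the EC but behind *Igfbp2*, *Igf2* and *Islr* in the PVC. *Dcn* made up 38.98% of the summed level per length of the 9 genes in the EC against 11.9% in the PVC, while *Igfbp2* made up 14.2% and 28.7%. Without a spread between mice, neighbours in these orders, such as *Islr* and *Slc6a13* in the EC, cannot be separated. Among the genes that average at least 10 normalized counts in a table, the levels of the markers ranged widely, with *Lum* above 22.1% of genes in the EC against 12.1% in the PVC and *Igf2* above 85.5% and 70.8%.

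The genes lie on 7 chromosomes, and several have a related gene beside them. Positions are those of the NCBIM37 build, and neighbours are the nearest protein-coding genes that the tables list. *Dcn* (ENSMUSG00000019929.8, chromosome 10, 96942245 to 96980777) and *Lum* (chromosome 10, 97028135 to 97035337) are neighbours 47357 bases apart on the plus strand. Their ratios of 8.54 and 1.60 differed although they are adjacent, and *Btg1*, the gene before *Dcn*, had a ratio of 0.976. *Kera*, the keratocan gene after *Lum*, had a mean normalized count under 10 in both tables and was not given a ratio.

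*Ogn* (chromosome 13, 49703440 to 49719869) is preceded by *Omd*, the osteomodulin gene of the same family, which had a ratio of 2.53, close to the 2.48 of *Ogn*. *Nol8*, on the other side, had a ratio of 1.14. *Slc6a13* (chromosome 6, 121250245 to 121287751) is followed after 5342 bases by *Slc6a12*, which encodes the betaine and GABA transporter BGT1 and had a ratio of 3.45. *Usp18*, before it, had a ratio of 1.24. *Slc13a4* (chromosome 6, 35217957 to 35258131) has *Fam180a* 4614 bases away with a ratio of 2.54 and *Nup205* on the other side with 1.18.

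*Igfbp2* (chromosome 1, 72871077 to 72899048) has *Igfbp5* 5457 bases away, with a ratio of 1.54, and the ribosomal protein gene *Rpl37a* on the other side with 0.973. *Islr* (chromosome 9, 58004080 to 58006949) lies between *Stra6* with a ratio of 1.25 and its paralog *Islr2* with 1.32. *Slc47a1* (chromosome 11, 61156902 to 61191847) lies between its paralog *Slc47a2*, whose mean normalized count was under 10 in both regions, and *Rnf112* with a ratio of 0.665. *Igf2* (chromosome 7, 149836673 to 149852721) lies between *Mrpl23*, with a ratio of 1.05, and *Ins2*, whose mean normalized count was under 10 in both regions. Whether the counting used strand is not given in the sources used here. *Igf2* overlaps the antisense gene *Igf2as*, listed with 23.9 mean normalized counts in the EC, and *Ogn* lies within *Cenpp* on the opposite strand, listed at 61.5, so reads of these pairs may not be fully separated.

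Upstream sequence is shown for 1 transporter, 1 matrix gene and the binding protein of lowest ratio, so that the roles can be set side by side. The RefSeq promoter table held 6 of the 9 markers, and *Dcn*, the marker of highest ratio, *Lum* and *Slc47a1* had no entry. Each sequence is the 250 bases before a RefSeq start site on the gene's strand, and each matched NCBIM37 exactly and once, at chr6:35258127-35258376 on the minus strand for *Slc13a4*, chr13:49703134-49703383 on the plus strand for *Ogn* and chr1:72870804-72871053 on the plus strand for *Igfbp2*. *Igfbp2* has a second window in the table, further into the gene, and the one shown lies nearest its annotated start. Capitals mark matches on either strand to any of 4 motifs. The TATA box was searched as TATAAA. For the GC box the letters were GGGCGG. The CCAAT box was searched by the letters of its name. The forkhead motif was taken as GTAAACA.
Slc13a4: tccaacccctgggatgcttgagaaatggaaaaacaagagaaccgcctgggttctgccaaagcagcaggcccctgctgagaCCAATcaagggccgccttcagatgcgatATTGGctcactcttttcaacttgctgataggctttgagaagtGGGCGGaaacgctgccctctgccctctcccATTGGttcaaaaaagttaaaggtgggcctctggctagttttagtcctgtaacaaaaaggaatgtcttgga
Ogn: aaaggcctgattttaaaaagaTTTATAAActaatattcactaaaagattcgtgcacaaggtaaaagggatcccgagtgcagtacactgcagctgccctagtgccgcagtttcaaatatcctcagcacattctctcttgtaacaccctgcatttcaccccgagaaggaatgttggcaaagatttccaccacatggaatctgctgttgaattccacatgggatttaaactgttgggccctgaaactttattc
Igfbp2: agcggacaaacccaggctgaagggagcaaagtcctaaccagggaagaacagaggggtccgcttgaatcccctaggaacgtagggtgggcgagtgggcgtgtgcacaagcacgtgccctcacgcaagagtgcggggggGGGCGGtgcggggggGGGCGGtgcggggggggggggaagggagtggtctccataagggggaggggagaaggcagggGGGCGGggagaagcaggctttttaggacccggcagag

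The 3 windows differ in composition, with 50.4% G and C for *Slc13a4*, 42.0% for *Ogn* and 67.2% for *Igfbp2*, beside a median of 52.4% over all 32851 windows of the table. The *Slc13a4* window holds 3 CCAAT matches and 1 GC box, the *Igfbp2* window 3 GC boxes, and the *Ogn* window overlapping TATAAA matches on both strands, between 229 and 222 bases before the start. The other *Igfbp2* window, with 56.4% G and C, holds none of the motifs. Of all windows, 33.8% hold a CCAAT match, 32.7% a GC box, 12.4% a TATAAA match and 3.17% the forkhead letters. None of these 3 windows holds the forkhead letters. These matches describe the letters and not sites in use.

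Genes outside the 9 that also mark meningeal fibroblasts mostly had a higher level in the EC, and none was listed at 0 in either region. Of all 15642 genes, 54.9% were higher in the EC. The lists of these further genes were chosen with earlier results of these data known, so they are not independent of the data. Of 12 genes of the fibroblast matrix, 10 were higher in the EC, against 54.9% of all genes. Of the 12, 5 had a ratio of at least 2, against 2.88%, and the median ratio was 1.91. The highest were *Col3a1*, with 3.69 CPM in the EC against 1.49 in the PVC, and *Col1a1*, with 15.0 and 7.04. Both encode chains of fibrillar collagens. The exceptions were *Col6a1*, with 80.6 CPM in the EC against 115 in the PVC, and *Fbln2*, with 12.3 and 16.4. The summed level of the 12 was 383 CPM in the EC against 301 in the PVC, a ratio of 1.27 and thus below their median. Without *Fn1*, named here for the highest EC level of the list, the other 11 summed to 258 CPM in the EC against 236 in the PVC.

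The list of meningeal regulators and signals had 12 genes, of which 11 passed the minimum of 10 in both tables. All 11 were higher in the EC, against 54.9% of all genes, and 7 had a ratio of at least 2, against 2.88%. The median ratio of the 11 was 2.19. *Foxc2*, a forkhead factor of mesenchymal cells, had a ratio of 2.75 at levels of 2.69 and 0.980 CPM. *Aldh1a2*, which makes retinoic acid, had one of 2.73 at 19.4 and 7.11 CPM. At the other end were *Zic1* with 1.60 and *Cxcl12* with 1.04. *Twist1*, named after its value was seen, was under the minimum in the PVC.

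**Figure D2:**
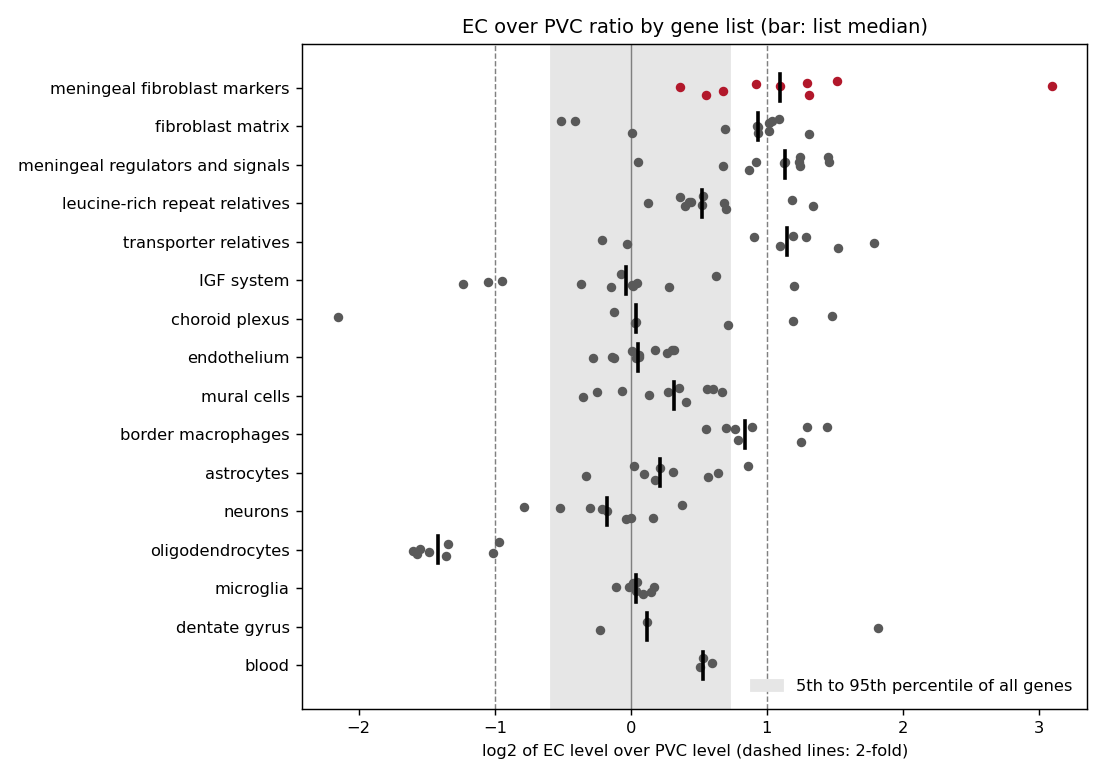
Each point is the log2 ratio of the EC level over the PVC level of 1 gene that passed the minimum, by gene list, and bars are list medians. The grey band is the range from the 5th to the 95th percentile of all 15642 genes, from -0.59 to 0.73, and dashed lines mark a ratio of 2. The meningeal fibroblast markers, in red, have a median of 1.09, and the oligodendrocyte genes lie at the opposite end with a median of -1.42.

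Within the leucine-rich repeat family, all 11 relatives that passed the minimum were higher in the EC, with a median ratio of 1.44. Of these, 2 passed a ratio of 2, *Omd* and *Fmod*. Over all genes, 54.9% were higher in the EC and 2.88% had a ratio of at least 2. *Fmod*, the fibromodulin gene, had a level of 12.9 CPM per kilobase in the EC against 5.67 in the PVC. That was above *Ogn* and *Islr* in the EC and below *Islr* in the PVC. *Aspn* and *Epyc* had the smallest ratios, 1.28 and 1.09, at levels under 1 CPM per kilobase. *Dcn* had a larger ratio than any of the 11 relatives. *Optc* was just under the minimum, with a mean normalized count of 104 in the EC against 9.80 in the PVC. Its ratio of 5.82, seen after the values were known, rests on a low mean in the PVC, and its spread between mice is unknown.

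Among the transporter relatives, 6 of the 8 that passed the minimum were higher in the EC and 5 had a ratio of at least 2. Over all genes these shares were 54.9% and 2.88%. *Slc6a12* with 3.45 and *Slc22a2* with 2.87, an organic cation transporter, were the highest. *Slc22a6* and *Slc22a8*, organic anion transporters named after their values were seen, had ratios of 2.44 and 1.87. *Slc6a11*, the astrocyte GABA transporter GAT3, had a ratio of 0.980 at 179 CPM in the EC against 183 in the PVC. *Slc13a5*, the citrate transporter, had a ratio of 0.862.

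In the insulin-like growth factor system *Igf2* and *Igfbp2* were not accompanied by most of the other genes. Of 12 others that passed the minimum, 6 were higher in the EC and 6 lower, and the median ratio was 0.977. *Igfbp3* had a ratio of 2.29 and *Igfbp5* one of 1.54. At the other end *Igfbp6* had 13.6 CPM in the EC against 32.2 in the PVC, and *Igf2bp2*, which encodes an RNA-binding protein, 0.286 and 0.591. *Igf2r*, the receptor that clears IGF2, and *Igf1r*, the signalling receptor, had ratios of 1.22 and 0.950, and were named for their role after their values were seen.

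**Figure D3:**
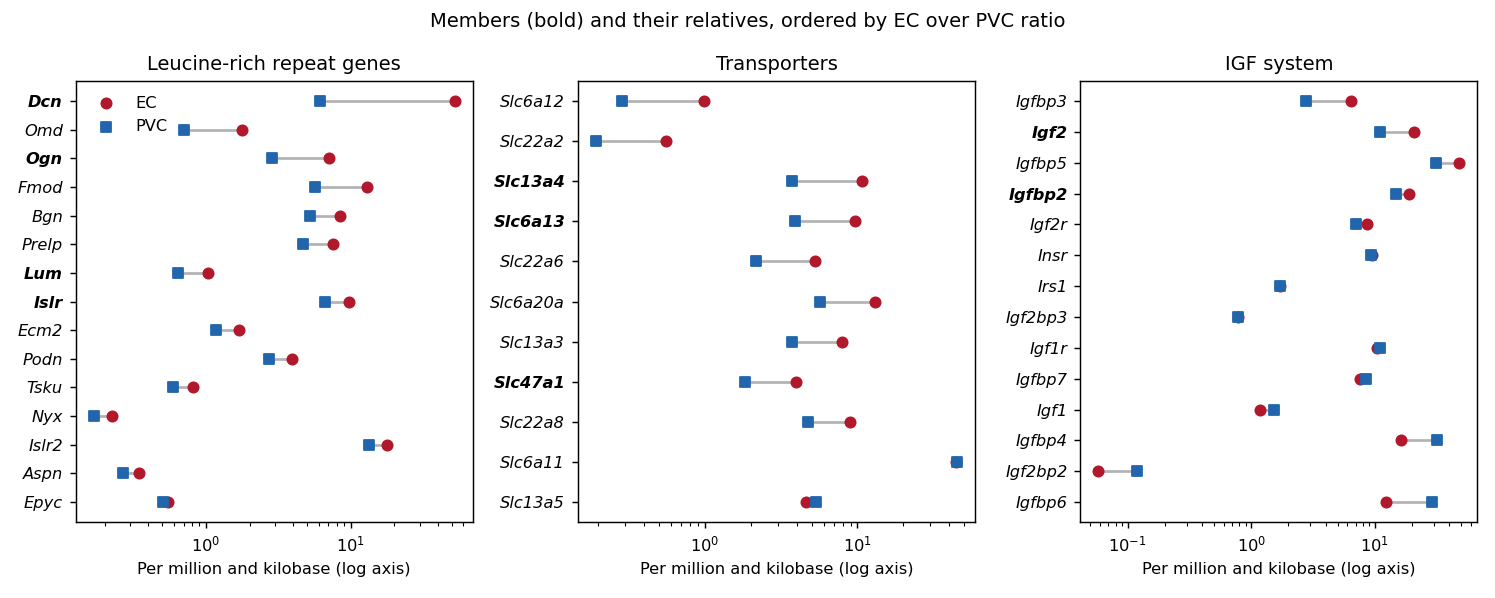
The CPM per kilobase is plotted on log axes for the markers, in bold, and their relatives that passed the minimum, ordered by the ratio of EC (circles) to PVC (squares). *Dcn* leads the leucine-rich repeat genes, *Slc13a4* and *Slc6a13* lie below *Slc6a12* and *Slc22a2*, and in the IGF panel the order of circle and square turns from *Igfbp3* at the top to *Igfbp6* at the bottom.

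Markers of other cells at the brain surface and of the tissue itself are given beside these values, and their part in the result was not tested. All 8 genes of border macrophages, which share the meninges with the fibroblasts, were higher in the EC, against 54.9% of all genes. Of the 8, 3 had a ratio of at least 2, against 2.88%. The summed level of the 8 was 55.4 CPM in the EC against 32.3 in the PVC. *Lyve1* had the highest ratio of these genes, 2.72, and *Stab1* the lowest, 1.47. Without *Stab1* the other 7 summed to 23.9 CPM in the EC against 11.0 in the PVC, a ratio of 2.18. The 3 blood genes had ratios between 1.42 for *Alas2* and 1.51 for *Hba-a1*, with sums of 66.9 and 45.6 CPM. Endothelial genes had a median ratio of 1.04, with sums of 365 and 354 CPM, and none of the 12 reached 2 in either direction. The 10 mural cell genes had a median of 1.24, from *Kcnj8* at 0.785 to *Acta2* at 1.59.

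The choroid plexus list had no common direction. Its 12 genes summed to 15.7 CPM in the EC against 23.2 in the PVC, and 7 passed the minimum. Without *Ttr* the other 11 summed to 12.5 CPM in the EC against 9.21 in the PVC, so the direction of the sum rests on that gene. *Ttr*, the defining marker, was at 3.14 CPM in the EC against 14.0 in the PVC, a ratio of 0.225, whereas *Kcnj13* had a ratio of 2.79 and *Sostdc1* one of 2.28. *Folr1*, *Otx2*, *Slc4a5*, *Cldn2* and *Kcne2*, named after their values were seen, were under the minimum, and none of the 12 was at 0.

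Oligodendrocyte genes lay in the other direction, with all 8 lower in the EC, 7 of them by a factor of at least 2, a limit that 2.04% of all genes passed in that direction. Their sums were 954 CPM in the EC against 2414 in the PVC. The markers of cortical tissue were present in both regions, with *Snap25* of neurons at 2279 and 3277 CPM and *Slc1a2* of astrocytes at 3658 and 3599. Neuronal genes had a median ratio of 0.886 over 9 listed genes, astrocyte genes 1.16 over 9 and microglial genes 1.03 over 8. Of the 5 dentate gyrus genes 3 passed the minimum, with ratios from 0.856 for *Prox1* to 3.52 for *C1ql2*.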

How the data were processed

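RNA-sequencing of 58 libraries from the EC and PVC of 29 mice was analysed. Per the labels and the methods of the study, the authors aligned reads to mm9 with TopHat2 2.0.6 and Bowtie2 2.0.2.0, counted them per gene with HTSeq on a modified NCBIM37 annotation and compared the genotypes with DESeq2 1.10.1. The mean normalized count deposited by the authors, the mean of counts divided by size factors over all libraries of a region, was used as a signal. The remaining 5 value columns of each table hold the authors' own comparison of *APOE3/4* with *APOE3/3* (fold change, standard error, statistic and *p*-values), and these were not used. Depth per library was not analysed here.

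Means were divided by the sum of their table and multiplied by 1000000, and ratios of EC to PVC were computed without a pseudocount with Python 3.11.15, numpy 2.4.6 and pandas 2.3.3. Shares over all genes used those with a mean of at least 10 in both tables. Lengths and positions came from the GENCODE annotation of NCBIM37, in which 80.6% of the listed genes had a single entry. The ratio procedure was tested on simulated data. Named genes are the 9 markers, the 2 highest and 2 lowest ratios of each list, chromosomal neighbours, the 10 largest ratios at a mean of at least 100, and defining markers of a list for their level. Others are marked in the text or overlap a marker. The markers, the lists and this rule were chosen with earlier results of these data known. In the transporter list, 1 gene is not reported here. Alternatives were other scalings, a pseudocount, a lower fold limit, other minimum means and the union of exons as length.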

Additional observations from a re-analysis of the deposited data

How the results depend on the processing

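The 3 other scalings move every log2 ratio by the same small amount and a pseudocount cannot turn a ratio, so the direction of the 9 markers could not change under them, and this is no sign of stability. The median log2 ratio of the markers, 1.09, was 0.97 with the pseudocount, and it moved by less than 0.1 under the other scalings, where the count of markers with a ratio of at least 2 was also 5. With the pseudocount that count was 4, beside 1.53% of all genes, and under the other scalings that share was between 2.66% and 2.87%. *Slc47a1* had a log2 ratio of 0.97 with the pseudocount, and *Lum* one of 0.43. Setting the median ratio of all genes to 1 put 50% of genes above 1. The share of all genes with a ratio of at least 2 in the EC, 2.88%, was 1.36% at a minimum mean of 100 and 8.91% with no minimum above 0. The median marker exceeded 36.8% of genes in the PVC, against 18.3% and 60.9% under these minimums. With the union of exons as length, 7 of the 9 markers kept their place in the order of each region. No paired analysis was possible because only 1 mean per gene and region was used. With no values of single mice, no replicate could be left out, and *Lum*, at the lowest counts, has the least precise ratio by counting.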
